A study of Homo sapiens with 8 samples.

Results

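RNA of HaCaT keratinocytes was counted in 8 libraries, 4 titled B and 4 titled A, and the comparison described here is B against A. HaCaT is an immortalised human keratinocyte line that grows as epidermal cells do in culture. In all 8 libraries the cells were CARD14 knockouts that had received a plasmid encoding CARD14, a self-cleaving T2A peptide and eGFP, so no library is of unmodified cells. B and A each held 1 library with WT CARD14 and 1 with each of the variants R820W, N737H and I593T, and the genes were compared with the construct as a block. All 8 libraries of the series entered the comparison, with members chosen by the first letter of their titles. Dishes of 10 cm were given 9 ug of plasmid with a medium change at 2 h, and cells with GFP were collected by sorting at 24 h, per the labels' protocols. The libraries are therefore of the transfected cells alone, with CARD14 driven from a plasmid. The series text mentions 2 independent experiments, and B and A are read here as those experiments, which the labels never state in words. What differed between them (passage, transfection, sorting, RNA or library preparation) is not given, so a difference of the cells and a difference of the handling cannot be told apart. Nothing says that the libraries within B or within A came from separate cultures, so p-values cover only the spread seen among these 8 libraries.

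Sterol synthesis, NF-kB signalling, heat shock and differentiation are described first because they were the themes set for this comparison. Their gene lists were chosen with earlier results of these data known. Sterol synthesis is driven by the SREBP factors, which leave the endoplasmic reticulum and switch on the enzymes of the pathway when membrane sterol is low. NF-kB is the inflammatory pathway to which the scaffold CARD14 signals through BCL10 and MALT1, and its targets in keratinocytes are chemokines, cytokines and its own inhibitors. Heat-shock genes answer misfolded protein in the cytosol, and the unfolded protein response does so in the endoplasmic reticulum. Differentiation takes the cell from basal keratins and hemidesmosomes to the small proline-rich and other proteins of the cornified envelope.

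Total counts ranged from 17892608 to 22383534 in B libraries and from 20792724 to 24629860 in A libraries. B libraries had more genes with a count, with a mean of 19170 ± 1280 against 18046 ± 217 in A libraries (SD, n = 4 each). The difference was positive in 4 of 4 constructs. An exact two-sided permutation test that ignored the constructs gave p = 0.0286, the smallest these groups allow, and an adjusted p of 0.143 over 5 library measures. An exact sign-flip test within constructs gave p = 0.125, the smallest it allows, and an adjusted p of 0.3125. The B library of N737H had 21059 such genes, and the other B libraries had 18333 to 18855. CARD14, the transfected gene, stood at 977, 1413, 1012 and 1394 CPM in B and 1125, 1189.6, 444 and 499 CPM in A (values run in the order WT, R820W, N737H, I593T here and below). CPM are counts scaled to the normalised library size. The 2 lowest values were the N737H and I593T libraries of A, the groups overlapped, and the fitted log2 fold change was 0.68 ± 0.27 (± SE, edgeR adjusted p = 0.19), with every fold change given here as B over A ± SE. Since plasmid and chromosomal transcripts share the gene's counts, this checks the transfection and not the knockout. MYC, the factor named in the series title, had 743, 704, 645 and 816 CPM in B and 739.7, 788, 739 and 740.1 CPM in A, a log2 fold change of -0.05 ± 0.09 (edgeR adjusted p = 0.76). All 14 keratinocyte markers were above 1 CPM, with summed levels of 8649 to 11539 CPM in B and 9904 to 15657 CPM in A. None of the 9 fibroblast, 4 endothelial or 3 erythroid markers reached a mean of 1 CPM. The melanocyte markers MITF, PMEL and MLANA and the leukocyte markers CD68 and CD74 did, with summed levels of 9.91 to 14.1 CPM in B and 8.77 to 10.5 CPM in A for the melanocyte list, and of 59.2 to 91.7 CPM in B and 51.4 to 70.4 CPM in A for the leukocyte list. The list of 3 genes for neuroendocrine or HEK293-like cells summed to 24.3 to 29.5 CPM in B and 45.6 to 72.1 CPM in A. Of these, CDH2, a cadherin, averaged 13.6 ± 3.79 CPM in B and 29.9 ± 8.23 CPM in A (log2 fold change -1.14 ± 0.11, edgeR adjusted p = 0.0061). NEFL averaged 14.1 ± 2.43 CPM in B and 27.4 ± 5.58 CPM in A and did not pass (-0.95 ± 0.20, edgeR adjusted p = 0.056). NEFM averaged 0.038 CPM in B and 0.010 CPM in A. The part of cells of any of these other types in the results was not tested.

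Of 14154 genes with at least 10 counts in at least 4 libraries, 463 passed an adjusted p of 0.05 in edgeR's quasi-likelihood test, which is 3.27% of those tested. In B, 245 were higher (1.73%) and 218 lower (1.54%). The median over all genes tested was 0.03 on the log2 scale, and the median size of a called difference was 0.90. More than a 2-fold difference was seen for 136 of the higher and 67 of the lower genes. All 463 had the same direction within each of the 4 constructs, and 442 had B and A values that did not overlap. Among all 14154 genes, B was above A in all 4 constructs for 2193 and below A for 2559. The test with the construct as block favours genes with a shared direction, so this adds no separate support. Over all genes tested, all 4 B libraries stood above all 4 A libraries for 1152 genes (8.14%) and below them for 1442 (10.2%). In the same fit no gene passed an adjusted p of 0.05 for a difference among the 4 constructs (0% called). At an unadjusted p under 0.05 there were 293 genes, and limma voom called no gene, with 300 at that p. With 1 library per construct and letter, this does not show that the constructs were alike. A gene could pass the filter through 1 letter alone, which held for 26 genes through B and 21 through A, of which 12 and 3 were called. The number of calls depended on which pair of libraries was left out. No gene was called without the R820W pair and 20 were called without the I593T pair. Without N737H there were 424 calls and without WT 953. All 463 genes kept their direction in these fits. That was nearly fixed in advance, since each had the same direction in all 4 constructs.

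Both GC content and length of the transcripts moved with the comparison. With the genes in 5 equal bins of transcript GC content, median log2 fold changes were -0.12, -0.06, -0.01, 0.10 and 0.26 from the lowest to the highest bin. In the highest bin 63 genes were higher in B and 5 lower, and in the lowest bin 44 were higher and 74 lower. The gradient was steeper within the WT and I593T constructs than within R820W and N737H. By transcript length the medians were 0.13 for the shortest of 5 bins and -0.06 for the longest. With a per-library offset for GC content, 552 genes were called among 12697 with a known value, 392 of them shared with the fit without it, and all 438 of the called genes that could be measured kept their sign.

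**Figure D1:**
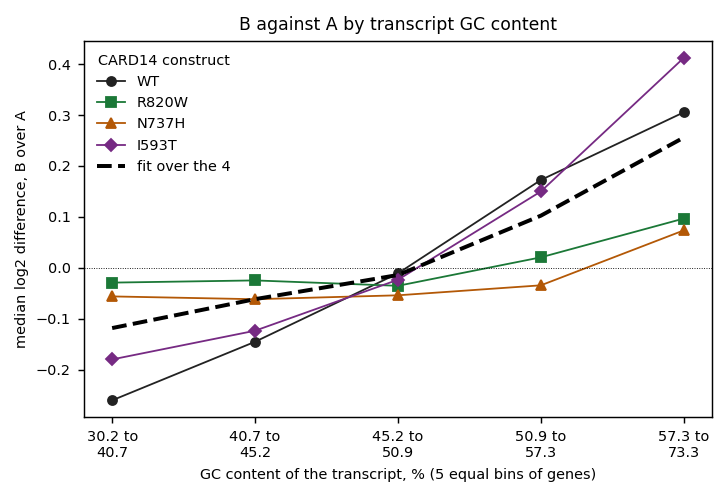
Median log2 difference of B over A (vertical axis) over 5 equal bins of genes by transcript GC content in percent (horizontal axis), within each of the 4 CARD14 constructs and in the fit over all 4. In the highest bin the fitted median was 0.26, and in the lowest it was -0.12.

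The enzymes of cholesterol synthesis that passed the test were all higher in B. All 21 had enough counts to be tested, 9 rose and 0 fell, against 1.73% of all genes that rose. The median log2 fold change was 0.58, beside 0.03 for all genes, every estimate was positive, and for 17 of the 21 every B library was above every A library, beside 8.14% of all genes. Within the constructs the median difference was 0.86 for WT, 0.48 for R820W, 0.32 for N737H and 0.52 for I593T. The median GC content of these transcripts was 50.2%, beside 47.8% for all genes tested, and with the GC offset the list median was 0.46 with 12 members called.

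HMGCS1, the synthase that opens the mevalonate route, had 525, 534, 529 and 423 CPM in B and 185, 215, 282 and 259 CPM in A. The lowest B library, with the I593T construct, was still above the highest A library, and the log2 fold change was 1.11 ± 0.14 (edgeR adjusted p = 0.015). CYP51A1, the lanosterol demethylase, had 535, 515, 505 and 501 CPM in B and 286, 269.9, 300.3 and 294 CPM in A. Its libraries varied little within a letter and lay far apart between letters, with a log2 fold change of 0.84 ± 0.08 (adjusted p = 0.0070). LSS, which closes the sterol rings, had 27.6, 26.6, 18.1 and 29.02 CPM in B and 10.4, 14.5, 10.6 and 10.1 CPM in A, also without overlap (1.14 ± 0.16, adjusted p = 0.019). MVD, a decarboxylase of the mevalonate arm, had 52.1, 53.6, 39.3 and 54.5 CPM in B and 19.8, 28.4, 24.6 and 22.3 CPM in A (1.07 ± 0.14, adjusted p = 0.015). Other called enzymes were MVK, the mevalonate kinase, at a log2 fold change of 0.99, ACAT2, the thiolase before HMGCS1, at 0.69, DHCR7, a reductase at the end of the pathway, at 0.58, and IDI1, the isopentenyl isomerase, at 0.55. These 4 had no overlap between B and A.

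SQLE, the squalene epoxidase, did not pass, with 333, 300.04, 299.9 and 312 CPM in B and 275, 257, 275 and 273 CPM in A and a log2 fold change of 0.20 ± 0.08 (edgeR adjusted p = 0.17), although every B value was above every A value. Over the whole pathway the fitted log2 fold changes ran from 0.17 for GGPS1 to 1.14 for LSS.

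**Figure D2:**
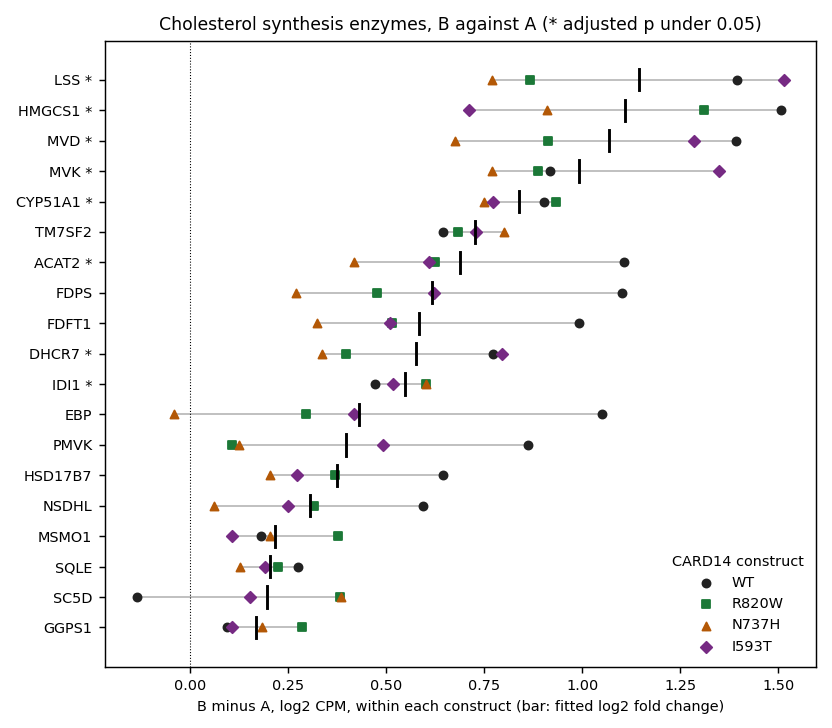
Difference of B minus A in log2 CPM within each CARD14 construct (symbols) and the fitted log2 fold change (black bar) for 19 of the 21 cholesterol synthesis enzymes, with an asterisk at the 8 of them that passed an adjusted p of 0.05. All bars lie right of 0, and the differences within WT, R820W, N737H and I593T spread more widely for some enzymes than for others.

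Among 14 tested genes that regulate SREBP or take up sterol, 1 rose and 0 fell, beside 1.73% of all genes that rose. Their median was 0.26. INSIG1, which holds the SREBP complex in the endoplasmic reticulum, had 25.4, 53.2, 88.5 and 124 CPM in B and 21.4, 20.4, 14.8 and 16.5 CPM in A. Its differences within the constructs were 0.25 for WT, 1.38 for R820W, 2.57 for N737H and 2.91 for I593T on the log2 scale, so a fitted value of 1.80 ± 0.43 did not pass (edgeR adjusted p = 0.070). With 1 library per construct and letter, whether the constructs differ in this was not tested.

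Fatty acid genes gave 4 that rose and 0 that fell of 15 tested, with a median of 0.32, beside 1.73% of all genes that rose, and 3 were called with the GC offset. SCD, the desaturase that makes oleate, had 1249.9, 1192, 966 and 1000.5 CPM in B and 459, 630.3, 588 and 484 CPM in A, so that the lowest B library was above the highest A library (log2 fold change 1.03 ± 0.13, edgeR adjusted p = 0.015). ACSL1, which activates long-chain fatty acids, had 41.3, 38.7, 27.2 and 28.4 CPM in B and 16.1, 16.3, 16.3 and 13.96 CPM in A (1.09 ± 0.13, adjusted p = 0.015). ACSS2, an acetyl-CoA synthetase, and FADS1, a desaturase of polyunsaturated acids, stood at log2 fold changes of 1.06 ± 0.20 (adjusted p = 0.042) and 0.42 ± 0.08 (adjusted p = 0.044), and with the GC offset ACSS2 had an adjusted p of 0.056. FASN, the fatty acid synthase, had 7.91, 14.5, 17.04 and 33.9 CPM in B and 7.404, 6.43, 4.89 and 6.88 CPM in A, and did not pass (log2 fold change 1.36 ± 0.34, adjusted p = 0.076). As for INSIG1, its WT libraries were close to each other and its I593T libraries were the farthest apart. Of 6 tested genes under LXR, the sterol-excess receptor, only ABCA1, a cholesterol exporter, passed, beside 1.54% of all genes called lower. It had 10.9, 9.69, 10.4 and 8.95 CPM in B and 19.8, 19.6, 13.95 and 13.9 CPM in A, lower in B with a log2 fold change of -0.73 ± 0.14 (adjusted p = 0.042).

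Those inflammatory targets of NF-kB that passed were all lower in B. Of 30 tested of 33 listed, 9 fell and 0 rose, against 1.54% of all genes that fell, and the median log2 fold change was -0.42. Estimates were negative for 25 of the 30, and 9 had every B library below every A library, beside 10.2% of all genes. The medians within the constructs were -0.55 for WT, -0.60 for R820W, -0.57 for N737H and -0.26 for I593T. In bulk RNA, fewer cells that make a transcript and less of it per cell cannot be told apart.

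IL8 (CXCL8), a neutrophil chemokine, had 131, 167, 120.3 and 138 CPM in B and 608, 388, 293 and 428 CPM in A. All A values were above the B values, with the A library of WT the highest, and the log2 fold change was -1.59 ± 0.17 (edgeR adjusted p = 0.010). CXCL1, of the same class, had 228, 237, 202 and 247 CPM in B and 489, 398, 319 and 392 CPM in A (-0.79 ± 0.10, adjusted p = 0.015). CXCL5, another neutrophil chemokine, had 10.4, 12.2, 8.52 and 12.02 CPM in B and 85.6, 38.3, 16.7 and 29.7 CPM in A, with A values that spread widely and B values that did not (-1.74 ± 0.32, adjusted p = 0.040). CXCL5 and CXCL6 are close paralogs, and how reads common to both were counted is not given. IL6, the acute-phase cytokine, had 6.27, 6.098, 6.04 and 6.58 CPM in B and 14.8, 14.2, 18.3 and 20.7 CPM in A. Its 4 B values lay within 1 CPM of each other and below every A value (-1.43 ± 0.14, adjusted p = 0.0070). IL23A, a subunit of a cytokine that acts on T cells, had 27.96, 26.6, 21.2 and 31.2 CPM in B and 70.6, 57.8, 40.6 and 55.7 CPM in A (-1.06 ± 0.11, adjusted p = 0.0093). TNF fell by 0.82 on the log2 scale, IL36G, an epidermal cytokine, by 0.76, CXCL6 by 0.96 and the macrophage chemokine CCL3 by 0.82, all called by edgeR. For IL36G and CCL3 the B and A values overlapped across constructs although B was below A within each. CCL2, a monocyte chemokine, had the lowest estimate of the list at -2.01 ± 0.44 and did not pass (adjusted p = 0.060). Its difference was -0.55 within WT and -3.13 within I593T.

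The genes of the pathway itself gave 3 that fell and 0 that rose among 23 subunits and feedback inhibitors, with a median of -0.19, beside 1.54% of all genes that fell, and 5 were called with the GC offset. TRAF1, an adaptor of TNF receptors, had 7.47, 9.31, 3.57 and 6.13 CPM in B and 21.5, 29.99, 13.9 and 15.6 CPM in A, without overlap (-1.62 ± 0.14, edgeR adjusted p = 0.0048). BIRC3, a ubiquitin ligase that restrains cell death, had 159.9, 179.9, 149.7 and 147 CPM in B and 327, 261, 262 and 273 CPM in A (-0.82 ± 0.10, adjusted p = 0.015). NFKB2, the subunit of the alternative pathway, had 11.95, 9.53, 9.46 and 11.5 CPM in B and 17.1, 17.96, 16.4 and 17.02 CPM in A (-0.70 ± 0.12, adjusted p = 0.037). The inhibitor NFKBIA did not pass. It had 79.2, 146, 185 and 298 CPM in B and 117, 100.3, 83.03 and 98.7 CPM in A, and its difference was -0.56 within WT and 1.59 within I593T, so the fit gave 0.69 ± 0.32 (adjusted p = 0.25). Of 20 tested CARD14 signalling partners 0 passed in edgeR (6 at an unadjusted p under 0.05, 1 called by DESeq2 and 0 by voom), with a median of 0.04. The scaffold partner BCL10 had 126, 109.7, 94.8 and 97.9 CPM in B and 140.4, 105, 106 and 110.1 CPM in A (adjusted p = 0.47) and the protease MALT1 had 5.64, 5.93, 6.39 and 6.72 CPM in B and 8.45, 7.83, 7.99 and 8.17 CPM in A (adjusted p = 0.16), and neither passed in edgeR.

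**Figure D3:**
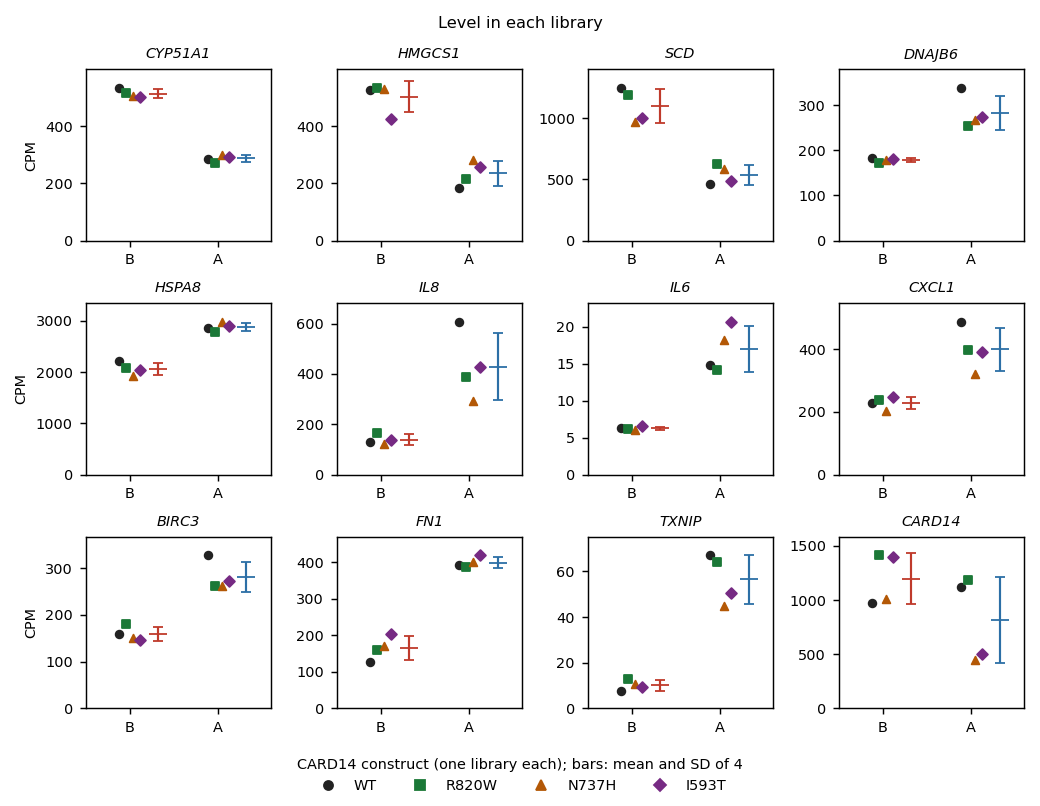
Level in CPM (vertical axes, from 0) of 12 genes in each library, B left and A right, with a symbol for each CARD14 construct and bars for the mean and SD of the 4 libraries of a letter. CYP51A1, HMGCS1 and SCD were higher in B, DNAJB6, HSPA8, IL8, IL6, CXCL1, BIRC3, FN1 and TXNIP were lower, and CARD14 overlapped.

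Promoters are shown for 4 of the 5 NF-kB inflammatory targets that fell and held the letters searched, so they were chosen for holding them. A sequence of 250 bases before the gene's start was read from RefSeq on GRCh38.p14 and searched on both strands for the kappaB letters GGNNNTTCC, which are printed in capitals. IL8 spans chr4:73740319-73740568 (plus strand), CXCL1 spans chr4:73869143-73869392 (plus strand), CXCL5 spans chr4:73998678-73998927 (minus strand) and IL6 spans chr7:22726950-22727199 (plus strand).
IL8: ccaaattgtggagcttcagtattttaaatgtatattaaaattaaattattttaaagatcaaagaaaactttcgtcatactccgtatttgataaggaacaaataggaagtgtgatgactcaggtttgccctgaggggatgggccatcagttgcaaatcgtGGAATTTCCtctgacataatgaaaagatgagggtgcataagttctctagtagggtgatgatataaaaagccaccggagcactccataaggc
CXCL1: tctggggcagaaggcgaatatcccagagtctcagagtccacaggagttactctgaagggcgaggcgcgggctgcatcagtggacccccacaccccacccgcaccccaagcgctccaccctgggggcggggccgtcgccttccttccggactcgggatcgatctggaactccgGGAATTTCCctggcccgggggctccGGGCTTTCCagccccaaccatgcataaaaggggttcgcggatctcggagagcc
CXCL5: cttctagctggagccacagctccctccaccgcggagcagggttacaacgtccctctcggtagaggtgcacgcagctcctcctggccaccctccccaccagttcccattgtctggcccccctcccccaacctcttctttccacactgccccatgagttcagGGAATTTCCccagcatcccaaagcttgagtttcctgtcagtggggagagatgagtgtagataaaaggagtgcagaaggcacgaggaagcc
IL6: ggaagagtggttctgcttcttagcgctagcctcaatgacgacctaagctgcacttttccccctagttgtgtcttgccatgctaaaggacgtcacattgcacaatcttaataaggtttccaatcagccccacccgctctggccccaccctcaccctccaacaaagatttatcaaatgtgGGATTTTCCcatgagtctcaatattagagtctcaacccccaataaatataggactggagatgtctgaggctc
Matches lay at positions -91 to -83 of IL8, -90 to -82 of CXCL5 and -72 to -64 of IL6, and CXCL1 had 2, with the first at -78 to -70 and the last at -53 to -45. The letters were present in 13 of the 24 inflammatory targets with a promoter in the table, 5 of the 9 that fell, and in 17.1% of 27305 promoters. They were thus about as common over the whole list as among those that fell. IL23A, TNF, IL36G and CCL3 fell without a match. A match is a description of the letters and not evidence of binding.

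The cytosolic heat-shock genes that passed were likewise lower in B. Of 30 tested, 8 fell and 0 rose, beside 1.54% of all genes that fell, with a median log2 fold change of -0.29. For 11 of them every B library was below every A library, beside 10.2% of all genes. Within the constructs the medians were -0.28, -0.28, -0.39 and -0.13. HSPA8, the constitutive cytosolic chaperone and the most abundant of those called, had 2214, 2071, 1919.6 and 2035 CPM in B and 2859, 2790.4, 2988 and 2891 CPM in A. B and A were apart, by a log2 fold change of -0.49 ± 0.09 (edgeR adjusted p = 0.038). DNAJB6, a J-domain cochaperone that holds back aggregation, had 182, 173, 179 and 179.8 CPM in B and 338, 253, 267 and 274 CPM in A (-0.66 ± 0.09, adjusted p = 0.018). DNAJB4, of the same class, had 21.98, 21.2, 22.4 and 18.7 CPM in B and 49.3, 35.1, 40.4 and 39.5 CPM in A (-0.95 ± 0.11, adjusted p = 0.014). The A library of WT was the highest for both, and without the WT pair both were still called, at log2 fold changes of -0.88 for DNAJB4 and -0.58 for DNAJB6. HSPA1A, the stress-induced relative of HSPA8, had 496, 501, 537 and 843 CPM in B and 1107, 784, 985 and 1023 CPM in A. Its B library of I593T was above its A library of R820W, so the groups overlapped, and the log2 fold change was -0.74 ± 0.14 (adjusted p = 0.045). HSPA1B, nearly identical in sequence, had -0.90 ± 0.19 and did not pass (adjusted p = 0.055), and how reads common to both were assigned is not given. HSPA4L, an exchange factor, fell by 0.63, CHORDC1, a cochaperone, by 0.56, DNAJA1 by 0.44 and HSP90AA1, an inducible chaperone, by 0.43 on the log2 scale. HSP90AB1, the constitutive form, had 4003, 3533, 3553 and 3835 CPM in B and 4194, 4049, 4367 and 4222 CPM in A and did not pass (-0.18 ± 0.09, adjusted p = 0.27). HSF1, the factor that drives these genes, had 14.3, 19.3, 22.8 and 56.6 CPM in B and 15.5, 14.3, 11.97 and 13.7 CPM in A (0.83 ± 0.32, adjusted p = 0.18), with a value in the I593T library of B above all others.

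Heat-shock promoters are shown for 3 of the 5 genes that fell and held the letters GAANNTTC or TTCNNGAA. They were read in the same way, with these letters in capitals. These 2 forms overlap where repeats run on, and capitals then join. HSPA8 spans chr11:123062137-123062386 (minus strand), HSPA1A spans chr6:31815293-31815542 (plus strand) and CHORDC1 spans chr11:90223050-90223299 (minus strand), all on GRCh38.p14 from RefSeq.
HSPA8: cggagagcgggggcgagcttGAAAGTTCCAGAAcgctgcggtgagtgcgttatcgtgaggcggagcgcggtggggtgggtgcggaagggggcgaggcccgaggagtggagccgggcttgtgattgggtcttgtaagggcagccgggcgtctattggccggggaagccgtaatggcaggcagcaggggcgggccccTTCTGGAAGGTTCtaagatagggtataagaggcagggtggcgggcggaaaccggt
HSPA1A: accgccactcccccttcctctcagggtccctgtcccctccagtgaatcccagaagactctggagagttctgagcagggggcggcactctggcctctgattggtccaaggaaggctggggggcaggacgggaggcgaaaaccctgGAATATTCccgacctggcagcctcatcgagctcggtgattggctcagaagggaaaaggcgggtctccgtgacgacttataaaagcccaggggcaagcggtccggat
CHORDC1: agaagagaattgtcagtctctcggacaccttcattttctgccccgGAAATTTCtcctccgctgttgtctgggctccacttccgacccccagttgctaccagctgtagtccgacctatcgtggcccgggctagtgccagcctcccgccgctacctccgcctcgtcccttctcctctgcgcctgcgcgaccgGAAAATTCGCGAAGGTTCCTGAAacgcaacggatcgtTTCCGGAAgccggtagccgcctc
HSPA8 held 4 matches, HSPA1A held 1 and CHORDC1 held 6. The letters were in 11 of the 27 heat-shock genes with a promoter in the table, 5 of the 8 that fell, and in 11.8% of 27305 promoters. DNAJB4, HSPA4L and HSP90AA1 fell without a match. The sterol element letters TCACNCCAC were in 0 of 16 cholesterol enzyme promoters and in 0.88% of all, which says only that these letters are not in those windows.

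Genes of the endoplasmic reticulum gave 4 that fell and 0 that rose of 23 tested, with a median of -0.21, beside 1.54% of all genes that fell, and 5 were called with the GC offset. DNAJB9, a cochaperone induced by unfolded protein, had 22.1, 25.5, 25.9996 and 26.8 CPM in B and 78.01, 55.4, 43.9 and 49.8 CPM in A (-1.15 ± 0.18 on the log2 scale, edgeR adjusted p = 0.025). CREB3L2, a membrane-bound transcription factor of this compartment, had 9.06, 10.7, 11.1 and 9.94 CPM in B and 25.2, 19.7, 19.7 and 17.6 CPM in A (-1.001 ± 0.15, adjusted p = 0.023). HERPUD1, a part of the degradation machinery, and DNAJC3, a cochaperone, fell by 0.62 and 0.64. HSPA5, the main chaperone of the compartment, had 4988, 4292, 4311 and 4794 CPM in B and 7244, 5748, 5584 and 5755 CPM in A, apart between the letters, and did not pass (-0.40 ± 0.09, adjusted p = 0.063). The targets of ATF4, the factor of the integrated stress response, gave 5 that fell and 0 that rose of 30 tested (median -0.12), beside 1.54% of all genes that fell. PSAT1, of serine synthesis, had 362, 328, 376 and 378 CPM in B and 615, 509.9, 575 and 537 CPM in A (-0.63 ± 0.08, adjusted p = 0.016). GARS, the glycyl-tRNA synthetase, fell by 0.64, MTHFD2, of mitochondrial folate metabolism, by 0.57, CHAC1, which degrades glutathione, by 0.87, and SLC7A11, the cystine importer, by 0.97 on the log2 scale. ATF4 RNA had a log2 fold change of -0.17 ± 0.09 (adjusted p = 0.29). With the GC offset the ATF4 list median was -0.25, with 9 members called.

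**Figure D4:**
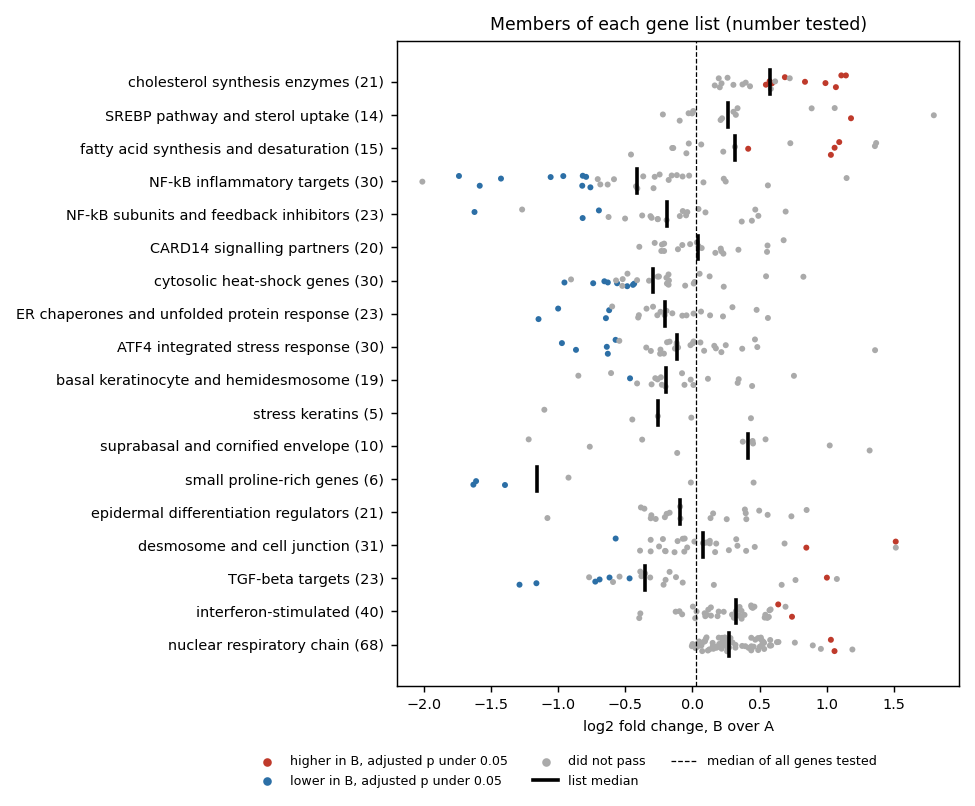
Fitted log2 fold change of B over A (horizontal axis) for each tested member of 18 gene lists, with the number tested in brackets, coloured by whether it passed an adjusted p of 0.05. Black bars are list medians and the dashed line is the median of all genes tested at 0.03; the cholesterol list has its median at 0.58 and the NF-kB inflammatory list at -0.42.

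Many markers of late epidermal differentiation were too low to measure. Of 29 suprabasal and cornified envelope genes 10 had enough counts, and 0 of these passed in edgeR, with a median of 0.41. At an unadjusted p under 0.05 there were 5, DESeq2 called 2 and voom 0. KRT13, the most abundant of them and a keratin of stratified epithelia, had 1099, 982, 507 and 645 CPM in B and 424, 756, 518 and 465 CPM in A (log2 fold change 0.54 ± 0.21, adjusted p = 0.18). KRT10, the suprabasal keratin, had 1.64, 1.58, 2.92 and 3.91 CPM in B and 1.42, 1.89, 1.79 and 1.85 CPM in A (adjusted p = 0.39), and IVL, involucrin, had 1.302, 1.09, 1.63 and 1.63 CPM in B and 0.6398, 1.32, 1.11 and 1.13 CPM in A (adjusted p = 0.44). TGM1, the transglutaminase that crosslinks the envelope, had 26.4, 23.3, 9.41 and 8.55 CPM in B and 6.08, 10.6, 6.64 and 6.88 CPM in A, with higher values in the WT and R820W libraries of B (1.02 ± 0.29, adjusted p = 0.10). Among 21 tested regulators of differentiation 0 passed in edgeR (8 at an unadjusted p under 0.05, 2 called by DESeq2 and 0 by voom), with a median of -0.09. TP63, the basal factor, had 499.97, 445, 382 and 361 CPM in B and 378, 349, 309 and 296 CPM in A (0.34 ± 0.08, adjusted p = 0.066). Basal and hemidesmosome genes gave 1 that fell of 19, beside 1.54% of all genes that fell, with a median of -0.20. With the GC offset 2 were called. The one that fell was CD44, a hyaluronan receptor, with 488, 479, 429 and 463 CPM in B and 700.4, 661, 590.2 and 618 CPM in A (-0.47 ± 0.08, adjusted p = 0.030). LAMA3, a chain of the laminin of the epidermal basement membrane, had -0.85 ± 0.21 (adjusted p = 0.072). Of 5 stress keratins 0 passed in edgeR (1 at an unadjusted p under 0.05, 1 by DESeq2, 0 by voom and 1 with the GC offset), and KRT17, the most abundant, had 1709.8, 1607, 1036 and 1669 CPM in B and 1534, 1984, 1204 and 1326 CPM in A (adjusted p = 0.97).

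The small proline-rich genes, precursors of the envelope, were low in both letters. Of 10 listed, 6 were tested, and 3 fell and 0 rose, with a median of -1.16, beside 1.54% of all genes that fell. SPRR2A had 3.66, 5.23, 1.68 and 2.32 CPM in B and 10.6, 15.4, 4.796 and 8.93 CPM in A. B was below A within every construct although the libraries of WT and R820W were high in both letters, so the groups overlapped (-1.63 ± 0.16, edgeR adjusted p = 0.0070). SPRR2E had 2.02, 3.27, 1.04 and 0.989 CPM in B and 7.31, 8.197, 2.81 and 3.62 CPM in A (-1.61 ± 0.21, adjusted p = 0.015), and SPRR2D had 4.001, 4.301, 1.14 and 2.47 CPM in B and 9.28, 10.9, 4.21 and 5.91 CPM in A (-1.40 ± 0.18, adjusted p = 0.015). These SPRR2 genes are near-identical neighbours whose reads cannot be assigned with certainty, so they may not be 3 separate measurements. SPRR1B, from another branch of the family, had 21.7, 19.9, 10.9 and 18.7 CPM in B and 29.8, 25.8, 8.91 and 12.9 CPM in A (-0.01 ± 0.19, adjusted p = 0.98). Without the construct as a block SPRR2D was no longer called (adjusted p = 0.052).

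Other epidermal genes moved in both directions. CEACAM5, a cell surface adhesion molecule, had 44.6, 40.4, 17.3 and 14.2 CPM in B and 4.25, 4.94, 2.42 and 2.86 CPM in A, without overlap (2.91 ± 0.19, edgeR adjusted p = 0.0030). Its paralog CEACAM6 had 87.97, 70.1, 40.01 and 50.8 CPM in B and 46.7, 34.8, 11.8 and 18.99 CPM in A, with overlap between constructs (1.27 ± 0.15, adjusted p = 0.015). PI3, the elastase inhibitor elafin, went the other way, with 54.3, 43.01, 27.2 and 39.01 CPM in B and 135, 138, 87.1 and 121 CPM in A (-1.58 ± 0.10, adjusted p = 0.0030). SERPINB13, a serpin that inhibits cathepsins, had 249, 217, 127 and 104 CPM in B and 92.8, 93.4, 66.9 and 57.8 CPM in A (1.10 ± 0.12, adjusted p = 0.0093). SERPINB3, KLK5, a kallikrein of desquamation, and MMP14, a membrane metalloprotease, also rose, by log2 fold changes of 1.46, 0.61 and 1.04. PLAU, the urokinase, had 471, 531, 309.9 and 366 CPM in B and 948, 952, 544 and 612 CPM in A (-0.85 ± 0.09, adjusted p = 0.0073), and SERPINE2, an inhibitor of urokinase and thrombin, had 16.5, 17.8, 20.3 and 21.5 CPM in B and 67.1, 53.4, 55.9999 and 56.1 CPM in A (-1.61 ± 0.13, adjusted p = 0.0046). MMP13, a collagenase, and SERPINB8 fell by 0.88 and 0.44. Of 31 junction genes 2 rose and 1 fell, beside 1.73% and 1.54% of all genes. GJA1, a gap junction connexin, had 52.8, 52.3, 57.8 and 50.7 CPM in B and 10.2, 18.04, 26.4 and 24.1 CPM in A (1.52 ± 0.22, adjusted p = 0.020). PKP1, a desmosomal plaque protein, had 174, 166, 104 and 134 CPM in B and 74.1, 92.3, 75.04 and 74.7 CPM in A (0.85 ± 0.13, adjusted p = 0.023), and CLDN1, a tight junction claudin, had 291, 305, 266 and 281 CPM in B and 464, 452, 377 and 409.98 CPM in A (-0.57 ± 0.08, adjusted p = 0.018).

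Most of the TGF-beta targets that passed were lower in B, with 6 that fell and 1 that rose of 23 tested and a median of -0.35, beside 1.54% of all genes that fell and 1.73% that rose. With the GC offset 9 were called and the median was -0.44. FN1, fibronectin, had 126, 160.1, 172 and 204 CPM in B and 391, 385, 399.7 and 418 CPM in A, apart between the letters (-1.29 ± 0.11, edgeR adjusted p = 0.0048). TGFB2, a ligand of the pathway, had 11.2, 10.9, 13.8 and 11.8 CPM in B and 20.3, 25.3, 35.4 and 27.4 CPM in A (-1.16 ± 0.12, adjusted p = 0.0091). ITGAV and ITGB6, which pair as an integrin, fell by 0.72 and 0.62, SMAD3, the signal transducer, by 0.47, and SKIL, a feedback repressor, by 0.69 on the log2 scale. BHLHE40, a transcription repressor, went the other way with 68.9, 69.4, 42.5 and 46.1 CPM in B and 23.8, 33.3, 25.9 and 28.4 CPM in A (1.002 ± 0.15, adjusted p = 0.025).

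Over all genes tested, fitted log2 fold changes ran from -3.83 to 9.30. Among called genes with a RefSeq symbol and a mean of at least 5 CPM, those with the largest differences came from many functions. Among those higher in B were ALDH1A1 and DHRS9, enzymes of retinoid metabolism. ALDH1A1 had 13.4, 12.2, 7.68 and 4.697 CPM in B and 0.3199, 0.783, 1.26 and 0.805 CPM in A (3.51 ± 0.45 on the log2 scale, edgeR adjusted p = 0.015), and DHRS9 had 35.4, 25.2, 13.7 and 19.1 CPM in B and 7.95, 7.37, 3.34 and 3.82 CPM in A (2.07 ± 0.14, adjusted p = 0.0030). APP, the amyloid precursor, had 71.5, 71.2, 97.8 and 127 CPM in B and 5.71, 15.1, 20.9 and 19.95 CPM in A (2.67 ± 0.24, adjusted p = 0.0052), UBE2E1, a ubiquitin-conjugating enzyme, had 65.5, 59.9, 51.1 and 59.3 CPM in B and 5.895, 10.2, 13.3 and 10.98 CPM in A (2.59 ± 0.23, adjusted p = 0.0052), and DDX6, an RNA helicase of processing bodies, had 145, 130.3, 121 and 103 CPM in B and 24.7, 27.4, 38.9 and 32.5 CPM in A (2.03 ± 0.17, adjusted p = 0.0048). In all 5 the lowest B library was above the highest A library. CCDC71, RAPGEF5, ERGIC1 and HNRNPA0 completed the 10 with CEACAM5, at log2 fold changes of 3.43, 2.59, 1.84 and 1.83. CCDC71 was at 8.02 to 10.3 CPM in B and 0.183 to 1.36 CPM in A.

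Among those lower in B, TXNIP, an inhibitor of glucose uptake induced by glucose, had 7.47, 12.9, 10.6 and 9.296 CPM in B and 67.04, 64.1, 44.7 and 50.4 CPM in A (-2.49 ± 0.18 on the log2 scale, edgeR adjusted p = 0.0038). Its paralog ARRDC4 fell by 1.61, and BNIP3, a mitophagy receptor induced by hypoxia, had 3.23, 2.78, 3.17 and 2.18 CPM in B and 13.3, 9.103, 10.5 and 11.5 CPM in A (-1.97 ± 0.18, adjusted p = 0.0052). Other genes of the hypoxia and glycolysis list rose, ALDOC, an aldolase, by 1.39, PFKL, a phosphofructokinase, by 0.92, and SLC16A3, a lactate exporter, by 1.73. In this list 3 of 32 rose and 3 fell, beside 1.73% and 1.54% of all genes. SNX2, a retromer-associated sorting nexin, had 0.5302, 1.03, 2.03 and 0.643 CPM in B and 13.6, 6.18, 8.38 and 8.77 CPM in A (-3.16 ± 0.43, adjusted p = 0.017). IL37, a cytokine that dampens inflammation, had 6.84, 5.23, 5.55 and 6.23 CPM in B and 35.9, 15.2, 13.2 and 24.5 CPM in A (-1.80 ± 0.20, adjusted p = 0.012). FDCSP, a secreted peptide, and HEPHL1, a ferroxidase, had -2.37 ± 0.18 (adjusted p = 0.0039) and -1.99 ± 0.38 (adjusted p = 0.042). The rest of the 10 were CXCL5, SPRR2A, TRAF1 and SERPINE2, given above.

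**Figure D5:**
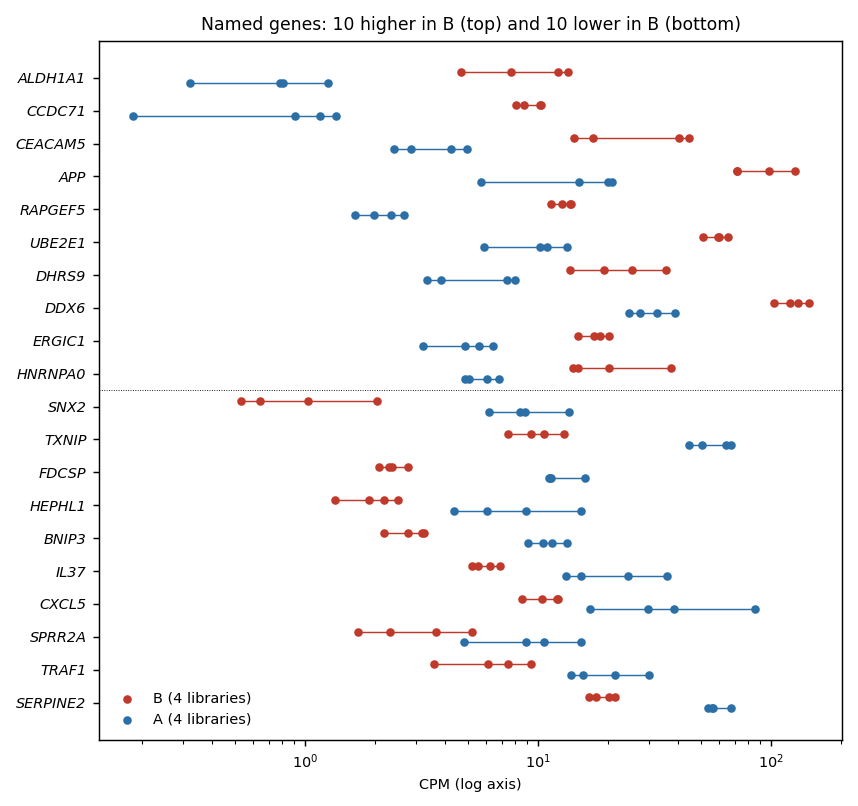
Level in CPM (horizontal log axis) of the 10 named genes higher in B (upper block) and the 10 lower in B (lower block), with 4 B libraries above 4 A libraries for each gene and a line from the lowest to the highest. Only for SPRR2A did the ranges of B and A overlap.

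Interferon-stimulated genes leaned to higher values in B, with positive estimates for 35 of 40, beside 7546 of the 14154 genes tested, and a median of 0.33. But 2 passed in edgeR, both higher, a share of 5% beside 1.73% of all genes that rose. With the GC offset 3 passed, and 13 by DESeq2. SAMD9L, an antiviral factor, had 209.8, 251, 243 and 194 CPM in B and 105, 161, 144 and 131 CPM in A (0.74 ± 0.10, edgeR adjusted p = 0.015), and TRIM22, a ubiquitin ligase of the same response, had 219, 234, 192 and 177 CPM in B and 110.1, 151, 137 and 129.7 CPM in A (0.64 ± 0.11, adjusted p = 0.034). IFIT3, the most abundant of the list, had 3206, 2732, 2417 and 2309.8 CPM in B and 1396, 1955, 2021 and 1753 CPM in A (0.58 ± 0.16, adjusted p = 0.094). The list medians within the constructs were 0.71 for WT, 0.24 for R820W, 0.02 for N737H and 0.20 for I593T. The nuclear genes of the respiratory chain were also uneven among constructs. Their estimates were positive for 67 of 68, with medians of 0.74 for WT, 0.13 for R820W, -0.07 for N737H and 0.31 for I593T. In edgeR 2 rose, a share of 2.94% that lies near the 1.73% of all genes. They were ATP5J2, by 1.06, and ATP5I, by 1.03, both small subunits of the ATP synthase. For 78 ribosomal protein genes, 0 of which passed in edgeR (20 at an unadjusted p under 0.05, 13 by DESeq2 and 0 by voom), the medians were 0.56 for WT, -0.02 for R820W, -0.14 for N737H and 0.24 for I593T. Mitotic genes, 0 of 39 of which passed in edgeR (6 at an unadjusted p under 0.05, 3 by DESeq2 and 0 by voom), had medians of 0.37 within WT and of -0.11, -0.45 and -0.36 within R820W, N737H and I593T. In these 4 lists the WT pair had the highest median, and whether the constructs differ was not tested. The median transcript was 1407 bases long for the respiratory list and 1842 for the ribosomal list, beside 3608 for all genes, and the shortest of the 5 length bins had a median of 0.33 within WT. The part of length in these values was not tested.

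The difference of B minus A within WT correlated with that within N737H at 0.01 across genes, and the highest correlation between any pair of constructs was 0.45 across genes. These are descriptions over 14154 genes, which are not independent, and each pair rests on 2 libraries. The first principal component, with 34.4% of the variance, separated the 4 B libraries from the 4 A libraries, and the second, with 24.9%, set the B library of WT against the B library of N737H.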

How the data were processed

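The data are raw read counts by gene symbol, deposited by the authors as a single table that covers all 8 libraries. Per the submitters' processing notes the build was hg19 and the tools FastQC, MACS2 and DESeq2, without roles. Aligner, counter, annotation and strand setting were not given in the sources used here, so reads of paralogs and overlapping genes may have been split in unknown ways. The table has 28518 rows, of which 5569 held no count and 27 have date-like names.

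Genes with at least 10 counts in at least 4 of the 8 libraries were tested, 14154 in all, which hold 99.8% to 99.9% of the counts of each library. They were fitted with edgeR 4.0.16 (R 4.3.3) by the quasi-likelihood method with TMM normalisation, the letter and the construct as terms, which leaves 3 residual degrees of freedom. All tests are two-sided and adjusted by Benjamini-Hochberg over all genes tested, with a threshold of 0.05. CPM were computed by edgeR, and log2 CPM within constructs used a prior count of 2. The common biological coefficient of variation was 0.187. No 2 libraries agreed within sampling noise, with a smallest chi-square per gene of 6.47. The script was tested on simulated data with known changes.

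The members and the 40 gene lists were chosen with earlier results of these data known, so a list is described by counts and medians and not tested. The naming rule took the 10 largest differences per direction among called genes with a RefSeq symbol and a mean of at least 5 CPM. It also took up to 4 called and 2 abundant members of each list, and CARD14 and MYC. Further members (among them INSIG1, FASN, SQLE, NFKBIA, CCL2, HSPA1A, HSF1 and TGM1) were named after their values were seen, and some members are counted in the lists but not reported here. GC content and length are those of the longest GENCODE transcript of a symbol, known for 12697 of the genes tested (89.7%). Promoters are from RefSeq on GRCh38.p14, a later build than that of the counts, matched by symbol. Alternatives were RLE factors, other filters, DESeq2 1.42.0, limma 3.58.1 voom, no replicate block, each pair or library left out, and, chosen after seeing the data, a GC offset.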

Additional observations from a re-analysis of the deposited data

Results flagged for a closer look

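Among 178 groups of 4 libraries, 1 library lay far from the other 3 in 10, and chance alone flags about 5% of such groups. MYC was at 788 CPM in the A library of R820W and at 739 to 740.1 CPM in the other A libraries. The same A library of R820W was the highest for FDCSP, at 15.9 CPM against 11.2 to 11.4 CPM, for LSS, at 14.5 CPM against 10.1 to 10.6 CPM, and for PKP1, at 92.3 CPM against 74.1 to 75.04 CPM. The B library of N737H was the lowest for MVD, at 39.3 CPM against 52.1 to 54.5 CPM and for KRT17, at 1036 CPM against 1607 to 1709.8 CPM. The A library of WT was the highest for DNAJC3, at 409 CPM against 269 to 287 CPM, and for HSPA5, at 7244 CPM against 5584 to 5755 CPM. The B library of I593T was the lowest for HMGCS1, at 423 CPM against 525 to 534 CPM, and the A library of I593T for ACSL1, at 13.96 CPM against 16.1 to 16.3 CPM. For HMGCS1, MVD, LSS, ACSL1, DNAJC3, HSPA5, FDCSP and PKP1 the library that stood apart was still on its own letter's side of the other letter.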

How the results depend on the processing

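All 463 called genes kept their direction in every fit where they could be measured. They had the same direction in all 4 constructs, so fits on part of the libraries could hardly reverse them. The number of calls was 463 with the construct block, 1307 (682 higher, 625 lower) with no replicate block, 760 (419 and 341) with no filter and 1307 (713 and 594) by DESeq2 with the block, against 457 with RLE factors, 507 by limma voom, 489 with a filter of 50 counts and 552 with the GC offset. The block follows the construct, but same-construct libraries did not deviate together: the correlations of their deviations were -0.20 for WT, 0.21 for R820W, -0.18 for N737H and 0.03 for I593T, and 3 of 8 libraries correlated best with their own construct. With no replicate block 7 fatty acid genes were called. By DESeq2 with the block the members called were 14 for NF-kB inflammatory targets, 7 for endoplasmic reticulum genes, 2 for suprabasal genes and 11 for TGF-beta targets. With 50 counts required the medians were -0.58 for the NF-kB list and -1.40 for the small proline-rich list, with fewer members measured.

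Leaving out a pair or a library gave 0 to 1583 calls (0 to 919 higher, 0 to 664 lower). Without the R820W pair there were 0 (2113 at an unadjusted p under 0.05), without I593T 20, without N737H 424 and without WT 953; of single libraries with no block, the A library of I593T gave the lowest count, 475. Members called ranged over 0 to 16 for cholesterol enzymes, 0 to 8 for fatty acid genes, 0 to 12 for NF-kB inflammatory targets, 0 to 10 for heat-shock genes, 0 to 7 for endoplasmic reticulum genes, 0 to 3 for small proline-rich genes, 0 to 3 for suprabasal genes and 0 to 10 for TGF-beta targets. The NF-kB median ranged over -0.61 to -0.29 and the small proline-rich median over -1.48 to -0.80. MYC ranged over -0.12 to 0.0048, with the changed sign without the B library of N737H and no block. The cause of these shifts was not tested.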

Other observations

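Single members of lists that otherwise held few calls also passed edgeR's test. TIPARP, a target of the aryl hydrocarbon receptor, had 79.3, 84.2, 74.7 and 81.7 CPM in B and 38.1, 47.8, 31.3 and 37.5 CPM in A, without overlap (log2 fold change 1.06 ± 0.10, adjusted p = 0.0061), while the other 9 tested targets of that receptor did not pass. BAX, a pro-apoptotic target of p53, had 11.2, 13.9, 15.7 and 21.5 CPM in B and 2.19, 7.13, 7.07 and 6.11 CPM in A (1.54 ± 0.24, adjusted p = 0.026). ETV5, a transcription factor downstream of ERK, had 4.48, 4.14, 4.06 and 4.99 CPM in B and 9.05, 9.39, 9.11 and 10.4 CPM in A (-1.10 ± 0.14, adjusted p = 0.015). TXNRD1, a thioredoxin reductase under NRF2, had 144, 141, 151 and 151 CPM in B and 350.0, 222, 223 and 247 CPM in A (-0.80 ± 0.13, adjusted p = 0.028).

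Of 42 genes of DNA replication 1 rose, a share of 2.38% that lies near the 1.73% of all genes. It was MCM7, a subunit of the replicative helicase, with 890.3, 822, 697 and 856 CPM in B and 439, 529, 513 and 489.9 CPM in A (log2 fold change 0.72 ± 0.11, edgeR adjusted p = 0.025). Of 23 tested histone genes 1 rose and 2 were called with the GC offset. The one that rose was HIST1H4C, with 673, 282, 640.3 and 805 CPM in B and 235, 177, 245 and 209.6 CPM in A, where the R820W library of B was well below the other B libraries (1.38 ± 0.19, adjusted p = 0.018). Histone genes share much of their sequence, and how reads common to several were counted is not given.

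Several genes had an even level in A and an uneven one in B. JUN, a subunit of AP-1, had 5.45, 12.8, 16.2 and 28.98 CPM in B and 4.07, 5.64, 3.49 and 3.38 CPM in A, so its difference was 0.41 within WT and 3.07 within I593T on the log2 scale (fitted 1.74 ± 0.41, adjusted p = 0.070). INSIG1, FASN, NFKBIA and HSF1 had their lowest B value in the WT library and their highest in the I593T library as well. These 5 genes were picked after their values were seen, there was 1 library per construct in B, and the pattern was not tested.

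The remaining lists held few calls in edgeR, where 1.73% of all genes were called higher and 1.54% lower. Genes called as higher and lower in B numbered 1 and 1 of 25 p53 targets, 1 and 1 of 11 glucocorticoid targets, 0 and 2 of 27 NRF2 targets, 0 and 1 of 22 immediate-early genes, 0 and 1 of 26 ERK feedback genes, 1 and 0 of 21 YAP targets, 0 and 1 of 18 barrier lipid genes, 0 and 1 of 27 nuclear RNA and splicing genes, and 2 and 1 of 18 antimicrobial genes. With the GC offset the calls were 3 for p53 targets, 3 for NRF2 targets and 4 for antimicrobial genes, and 0 for barrier lipid genes, whose single call, DEGS1, then had an adjusted p of 0.055. No gene was called among 44 genes of MYC and ribosome biogenesis (11 at an unadjusted p under 0.05, 3 by DESeq2, 0 by voom), 34 proteasome subunits (4, 3 and 0 by the same counts), 29 lysosomal genes (9, 5 and 1), 8 metallothionein and zinc transport genes (3, 2 and 0) and 6 simple epithelial keratins (2, 1 and 1).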
